A study of Mus musculus with 2 samples.

Results

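The distal microRNA cluster of the imprinted Dlk1-Dio3 region is a run of 39 microRNA genes, from Mir379 to Mir3072, on the plus strand of mouse chromosome 12. The members were defined by position, as every microRNA gene of the GENCODE M21 annotation on that strand from Mir379 to Mir3072. Mir379 ends at position 109709125 of mm10, and Mir3072 starts at position 109747878. The cluster was chosen with earlier results of these data known. They are 39 of 2202 annotated microRNA genes. Their abundance was measured by microRNA-seq, the sequencing of short RNAs, in the adrenal gland of 10-day-old female B6CASTF1/J mice. These mice are the first-generation offspring of C57BL/6J and CAST/EiJ parents, and the labels record no treatment and no engineered allele. There is 1 group of 2 libraries, labelled biological replicates 1 and 2 and numbered as animals 3 and 4, so the data describe levels and their spread and compare no conditions. Both libraries carry 1 shared donor entry. The p-values set these 2 libraries against counting error only, and differences between the libraries may be technical.

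The Dlk1-Dio3 region is expressed by parental origin. Its protein-coding genes Dlk1, Rtl1 and Dio3 are active on the paternal chromosome, while the long noncoding RNAs Meg3, Rian and Mirg and the microRNAs among them come from the maternal one. The microRNAs are cut as hairpins from long primary transcripts by Drosha and then by Dicer, and 1 strand of each duplex guides Argonaute to messenger RNAs that pair with its seed, bases 2 to 8. The cluster is best known from neurons, where the activity-dependent factor Mef2 raises its transcription and where miR-134 limits dendritic spine size. The counts analysed here do not separate the parental alleles.

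The seed sets which messenger RNAs a microRNA can bind, so the mature sequences of the members that carry most of the counts are given first, from RefSeq (build GRCm38.p6, a patch release of the assembly that mm10 names). RefSeq entries were matched for 38 of the 39 members, with 71 mature sequences. Each sequence runs 5′ to 3′ on the plus strand, and the capitals mark the seed.
miR-379-5p: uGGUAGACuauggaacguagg
miR-379-3p: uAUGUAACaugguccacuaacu
miR-411-5p: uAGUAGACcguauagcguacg
miR-411-3p: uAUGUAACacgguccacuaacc
miR-541-5p: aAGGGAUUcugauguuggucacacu
miR-541-3p: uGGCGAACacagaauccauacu
miR-382-5p: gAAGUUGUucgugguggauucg
miR-382-3p: uCAUUCACggacaacacuuuuu
miR-134-5p: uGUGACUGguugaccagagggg
miR-134-3p: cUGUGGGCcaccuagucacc
miR-376a-5p: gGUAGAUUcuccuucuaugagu
miR-376a-3p: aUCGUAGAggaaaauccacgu
miR-409-5p: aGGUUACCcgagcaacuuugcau
miR-409-3p: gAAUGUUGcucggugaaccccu
Mir379 and Mir411, neighbours at the head of the cluster, share the seed AUGUAAC on their 3′ arms. Over the 22 bases those arms differ at U10C and U22C, with the base of miR-379-3p first and positions counted from 1 at the 5′ end.

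Among the 71 mature sequences there were 65 distinct seeds, and 6 seeds occurred in a pair of members each, 11 members in all. RefSeq lists both arms for 33 members and 1 mature sequence for 5, so seeds of unlisted arms are left out of these counts. Besides the pair above, miR-379-5p shares its seed with miR-1193-5p, and the other shared seeds join pairs of less abundant members. The sequences of these groups are given to show which products could pair with the same targets.
miR-1193-5p: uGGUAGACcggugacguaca
miR-376c-5p: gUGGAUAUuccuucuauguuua
miR-376b-5p: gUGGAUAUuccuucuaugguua
miR-494-5p: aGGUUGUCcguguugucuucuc
miR-410-5p: aGGUUGUCugugaugaguucg
miR-496a-5p: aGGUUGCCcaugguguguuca
miR-453: aGGUUGCCucauagugagcuugca
miR-1197-5p: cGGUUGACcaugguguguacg
miR-758-5p: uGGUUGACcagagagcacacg
The 5′ arms of miR-376c and miR-376b differ at U19G alone. Of the mature sequences, 30 began with U, 27 with A, 10 with G and 4 with C. Seeds of 11 of them also occur in microRNAs outside the cluster, such as that of miR-329-3p, which miR-362-3p carries.

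The hairpins of Mir381 and Mir487b, the neighbours that differed most in opposite directions between the libraries, and of Mir299a, whose arms mirror each other, are given next, with the mature arms listed in RefSeq in capitals. Mir381 lies at chr12:109726822-109726896, Mir487b at chr12:109727333-109727414 and Mir299a at chr12:109710638-109710700, all on the plus strand of mm10.
Mir381: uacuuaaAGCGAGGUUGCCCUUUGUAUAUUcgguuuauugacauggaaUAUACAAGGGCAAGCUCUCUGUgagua
Mir487b: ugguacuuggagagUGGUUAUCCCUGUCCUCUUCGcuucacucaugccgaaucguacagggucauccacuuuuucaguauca
Mir299a: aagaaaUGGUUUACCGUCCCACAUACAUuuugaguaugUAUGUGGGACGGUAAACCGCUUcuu
Mir381 has a near twin in Mir300, a member located ahead of it in the cluster, and the mature 3′ arms are set side by side with their seeds in capitals.
miR-300-3p: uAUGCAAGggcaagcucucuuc
miR-381-3p: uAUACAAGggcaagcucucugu
With the base of miR-300-3p first, the arms differ at G4A, within the seed, and at U21G and C22U, at the 3′ end. Mir544 had the lowest ratio between the libraries with 1 CPM added, though not with 5 CPM, and its mature arms follow with their seeds in capitals.
miR-544-5p: uCUUGUUAaaaagcagagucu
miR-544-3p: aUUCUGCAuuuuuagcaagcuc

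The libraries held 5278986 and 8555429 reads, of which 2023410 (38.3%) and 3208821 (37.5%) were assigned to microRNA genes. Levels are given as CPM, the count of a gene divided by the assigned counts of its library and multiplied by 1000000, so 1 count equals 0.494 CPM at the lower depth and 0.312 CPM at the higher. A microRNA read spans about the whole mature molecule, so CPM was compared between members without division by length. Counts belong to the hairpin gene, so the 5′ and 3′ arms shown above were not separated. The endothelial marker Mir126a made up 17.8% (replicate 1) and 4.79% (replicate 2) of the counts, and the liver marker Mir122 took 2.67% and 0.928%. Of 5 neuroendocrine markers listed, 3 matched a gene name (Mir375, Mir7b and Mir137) and summed to 2.80% and 3.48%. Mir7a-1 and Mir7a-2 matched none, and the genes named Mir7-1 (159 and 166 CPM) and Mir7-2 (46.0 and 32.7 CPM) were not included. The 7 markers of smooth muscle and stroma summed to 3.21% and 4.64%, and the 7 of epithelium to 0.0742% and 0.327%. The 8 of striated muscle summed to 1.13% and 0.451%, with Mir1a-1 and Mir133a-2 at 0. The 5 leukocyte markers summed to 0.245% and 0.431%, the 2 of red blood cells to 0.0594% and 0.0290%, the 4 of kidney or gut epithelium to 0.0410% and 0.0214%, and the 10 of neurons to 0.0645% and 0.0666%, with Mir124a-2, Mir124a-3, Mir9-2 and Mir9-3 at 0. These sums hide unlike members. Mir206 (11177 and 4480 CPM) made up most of the striated muscle sum. In the stroma list Mir143, Mir145a, Mir199b and Mir140 (527 and 6072 CPM) were higher in replicate 2, and Mir214 (3057 and 914 CPM) and Mir199a-2 lower. Mir375 was higher and Mir7b and Mir137 lower, and in the kidney or gut list Mir204 was higher and the others lower. The markers at 0 are numbered copies, and reads that align to several places were not counted, so these zeros set no limit on muscle or neuronal microRNAs. The part of cell makeup in the differences below was not tested, and in bulk tissue fewer cells of a type and less RNA per cell cannot be told apart.

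As a whole the cluster was abundant and steady. It took 92150 counts in replicate 1 and 144523 in replicate 2, which is 4.55% (exact Clopper-Pearson 95% interval 4.53 to 4.58%) and 4.50% (4.48 to 4.53%) of assigned counts. The mean share was 4.53% ± 0.0355 (SD, n = 2). Among the 39 members, 33 reached 10 CPM in both libraries, or 84.6%, where 302 of all 2202 microRNA genes (13.7%) did. Members at 100 CPM or more in both libraries numbered 28, and 8 were at 1000 CPM or more in both.

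Counts were concentrated in a few members. Mir411, known from work on muscle, led the cluster in both libraries from chr12:109710175-109710256 at 9446 and 8198 CPM, a mean of 8822 ± 883 CPM (SD, n = 2). Among all microRNA genes it ranked 23 and 28. Mir379, the first member of the cluster, followed at 7358 and 7144 CPM (7251 ± 152 CPM), and Mir541, which lies at the other end of the cluster in an intron of Mirg, at 6535 and 6242 CPM (6388 ± 207 CPM). These 3 members held 51.2% of the cluster's counts in replicate 1. In replicate 2 the top 3 were Mir411, Mir379 and Mir487b with 48.7%, because Mir487b, at 1109 CPM in replicate 1, was at 6585 CPM there. The top 5 held 63.1% and 69.3%, the top 10 held 82.0% and 85.8%, and 15 and 13 members were needed to reach 90% of the counts.

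**Figure D1:**
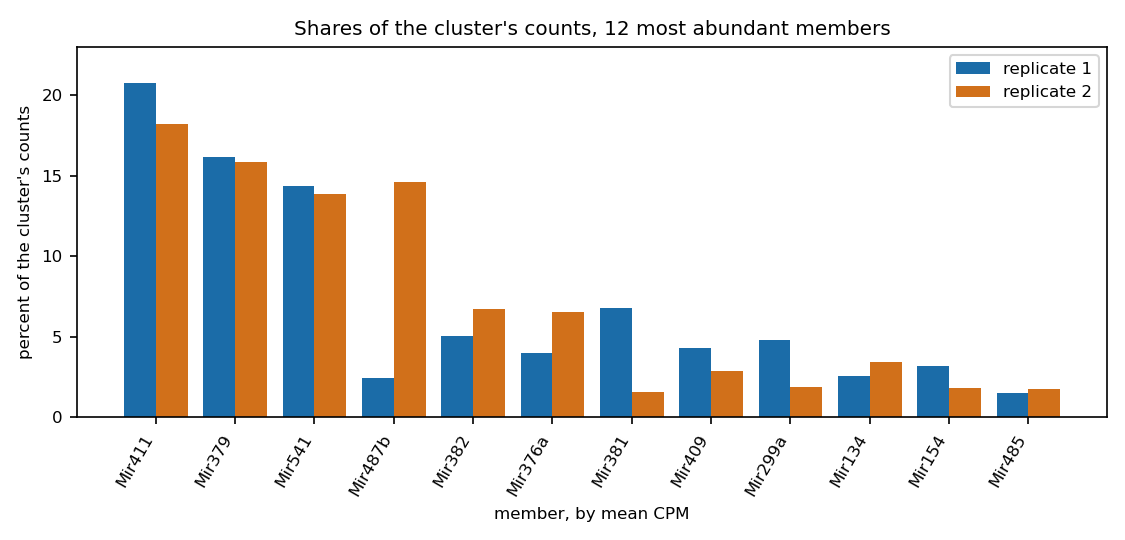
Share of the cluster's counts (percent, from 0) taken by each of its 12 most abundant members in replicate 1 and replicate 2, ordered by mean CPM, with 1 bar per library and no error bar. Mir411, Mir379 and Mir541 take similar shares in both libraries, whereas Mir487b takes 2.44% and 14.6% and Mir381 6.80% and 1.54%.

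The members next in level were spread over the cluster. Mir382 stood at 2299 and 3034 CPM and Mir376a at 1829 and 2953 CPM. The miR-376 family to which Mir376a belongs is known for adenosine-to-inosine editing in the brain. Mir381 stood at 3099 and 693 CPM, Mir409 at 1951 and 1286 CPM and Mir299a at 2188 and 845 CPM. Mir134, the dendritic spine regulator, stood at 1174 and 1544 CPM, which gave it ranks 84 and 70 among all microRNA genes. Of the 10 highest members in each library, 9 were in both lists. The order of the members was similar in the 2 libraries, with Pearson's r of log2(CPM + 1) at 0.959 and Spearman's rho at 0.949 over the 39 members. Over the 33 members at 10 CPM in both, r was 0.907 and rho 0.918. The members share their 2 libraries, so these correlations are descriptions.

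In the order of mean level, Mir411 and Mir379 kept their places in both libraries and Mir541 did not. Mir411 was above Mir379 in both libraries, and Mir379 above Mir541 in both. Mir487b, next in mean CPM, overlapped the values of Mir541, Mir382, Mir376a, Mir381, Mir409 and Mir299a, since it lay below all of these in replicate 1 and above all of them in replicate 2. Its mean of 3847 ± 3872 CPM (SD, n = 2) has an SD as large as the mean.

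**Figure D2:**
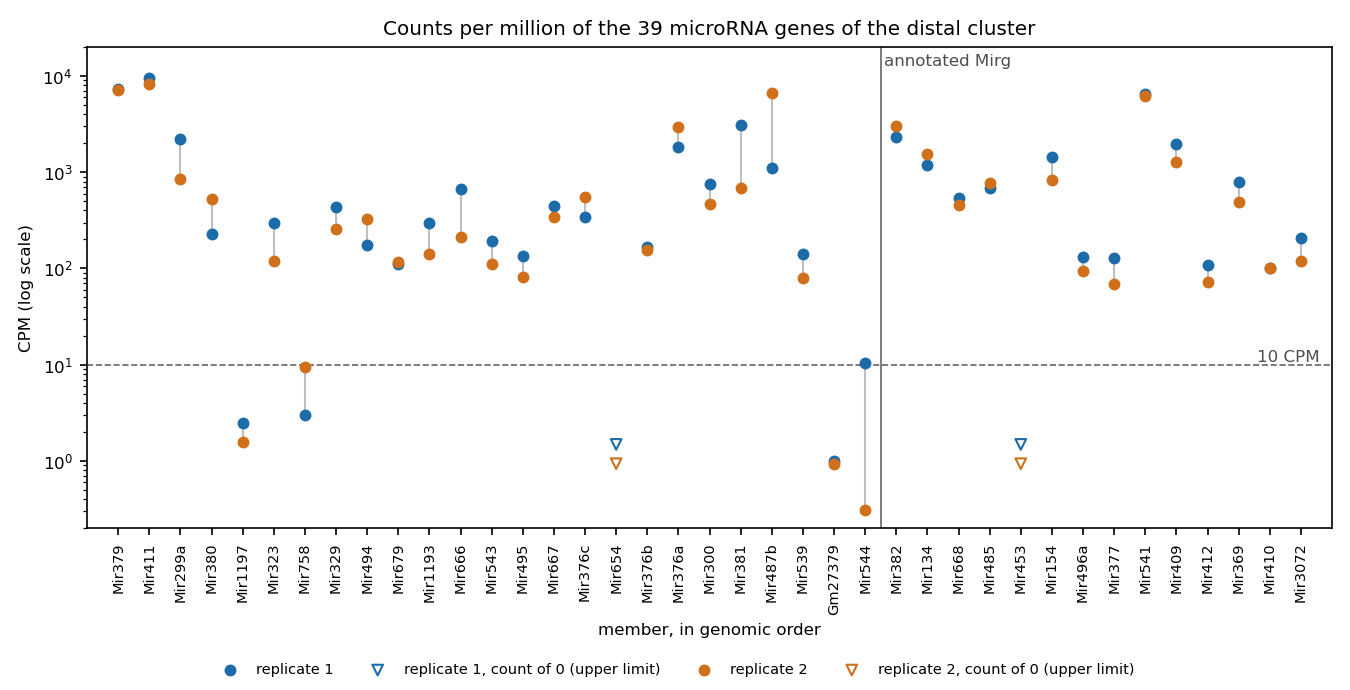
CPM (log scale) of each of the 39 members in genomic order, with 1 point per library joined by a grey line, open triangles at the limit that a count of 0 allows, a dashed line at 10 CPM and a vertical line where the annotated Mirg transcript begins. High members stand at both ends and near the middle, beside members at a few counts, and Mir654 and Mir453 have no count.

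Level did not follow position in any simple way. The members lie over 38.9 kb, with a median gap of 556 bases between neighbours (20 to 4368 bases). Across the 33 members at 10 CPM in both libraries, the log2 of mean CPM had a Pearson's r of -0.11 with the distance from Mir379, -0.06 with hairpin GC content (29.1 to 72.3% over all members), 0.07 with predicted folding energy per base and -0.12 with hairpin length (61 to 123 bases). All 4 are weak and are given as descriptions over members of the same libraries.

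By mean CPM, the remaining members at 10 CPM in both libraries ran from Mir154 down to Mir412. Mir154 stood at 1452 and 829 CPM, Mir485 at 690 and 777 CPM, Mir369 at 799 and 491 CPM and Mir300 at 763 and 468 CPM. At the lower end, Mir410 stood at 100.3 and 101.9 CPM and Mir412 at 108 and 72.0 CPM. Over the members at 10 CPM in both libraries, Mir411 was 94.2 times the lowest, Mir410, in replicate 1 and 119 times the lowest, Mir377 (68.9 CPM), in replicate 2. The others had means between those of Mir154 and Mir412. Mir329, which like Mir134 is known from dendrite growth, stood at 430.0 and 259 CPM. Mir668 stood at 541 and 452 CPM and Mir667 at 448 and 343 CPM. Below these came Mir543 (191 and 112 CPM), Mir3072 (205 and 118 CPM), Mir539 (142 and 79.2 CPM), Mir495 (135 and 81.6 CPM) and Mir679 (112 and 118 CPM). Of these 8 members, all but Mir679 were lower in replicate 2 by CPM. Mir543 and Mir495 are near twins, whose 22-base 3′ arms differ at U6A, U7A, G9A and C10U (the base of miR-543-3p first). Both stood at similar levels.

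There were 6 members that did not reach 10 CPM in both libraries. Mir654 and Mir453 had no count in either library, which still allows 3 counts, or 1.48 CPM at the lower and 0.935 CPM at the higher depth, by counting error alone. Mir654 lies at chr12:109723218-109723301, 414 bases after Mir376c (340 and 557 CPM) and 156 bases before Mir376b (166 and 155 CPM). Mir453 lies in an intron of Mirg between Mir485 and Mir154. The longest stretch that either shares with another annotated hairpin is 12 bases for Mir654 and 13 for Mir453. Gm27379, an unnamed microRNA gene model without a mature entry, had 2 and 3 counts, at or below the limit set by a count of 0.

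The other low members had a few reads. Mir1197 had 5 counts in each library (2.47 and 1.56 CPM), and Mir758 had 6 and 30 counts (2.97 and 9.35 CPM). These neighbours of Mir323 share the seed GGUUGAC on their 5′ arms, and together they took 0.0119% and 0.0242% of the cluster's counts. Mir544 had 21 counts in replicate 1 and 1 in replicate 2, or 10.4 and 0.312 CPM, and so reached 10 CPM in 1 library alone. Low members therefore stood directly beside abundant ones, with the 5 counts of Mir1197 set between Mir380 (230 and 532 CPM) and Mir323 (294 and 118 CPM).

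The seed groups ran from the most abundant pair of the cluster to a pair near 0. Mir379 and Mir411, with AUGUAAC on both 3′ arms, together took 36.9% and 34.1% of the cluster's counts. Mir1193, which shares GGUAGAC with the 5′ arm of Mir379, stood at 293 and 142 CPM, far below Mir379 itself. Mir494 (177 and 323 CPM) and Mir410 share GGUUGUC, and the pair summed to 277 and 425 CPM. Mir376c and Mir376b, with UGGAUAU, summed to 506 and 712 CPM. In the group GGUUGCC, Mir496a stood at 132 and 95.1 CPM beside Mir453 at 0. Because arms were not separated, these sums belong to the hairpins and not to the arm that carries the seed.

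The summed level hid differences between the libraries in single members. Log2 ratios are replicate 2 over replicate 1, on CPM scaled by TMM (a scaling that assumes most genes do not differ) with 1 CPM added, which understates the ratios of low members. They were computed for the 34 members, and the 329 microRNA genes in all, with at least 10 CPM in either library. Mir487b had the highest ratio of the 34, with a log2 ratio of 2.62 (exact 95% interval without the added CPM 2.56 to 2.68). Mir381, whose gene ends 436 bases before that of Mir487b begins, went the other way with a log2 ratio of -2.11 (-2.18 to -2.04). Their difference of 4.73 log2 units is the largest between any neighbours of the cluster at 10 CPM in both libraries. Mir381 stood above Mir487b in replicate 1 and below it in replicate 2.

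In all, 7 of the 34 members (20.6%) differed by at least 1 log2 unit, against 73 of all 329 genes (22.2%), a share near the background. In replicate 2, 2 members were higher, Mir487b and Mir380 (1.26), beside 10.9% of all genes. There were 5 lower members, beside 11.2% of all genes. Mir544 had a log2 ratio of -3.09, which rests on 21 against 1 counts (exact 95% interval -10.38 to -2.37) and passed the 10 CPM floor through replicate 1 alone, so its direction was fixed. Its size depends on the CPM added, with -4.63 at 0.1 CPM and -1.52 at 5 CPM. Mir666 stood at 661 and 213 CPM (-1.58), Mir299a had a log2 ratio of -1.32 and Mir323 one of -1.26. Without Mir544, 6 of 33 members at 10 CPM in both libraries were this far apart, 2 higher and 4 lower. Among all 302 genes at that level, 26 were higher and 31 lower by this much.

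**Figure D3:**
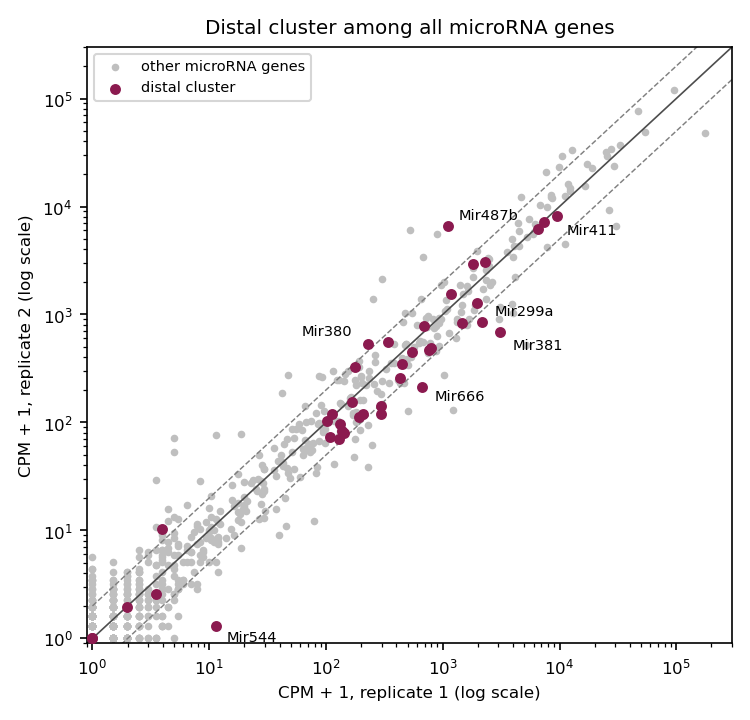
CPM + 1 in replicate 1 against CPM + 1 in replicate 2 (both log scales) for the 39 members and for all other microRNA genes, with a solid line of equal values and dashed lines at 2-fold either way. Most members lie within the dashed band. Mir487b and Mir380 are among the members above it, and Mir381, Mir666, Mir299a and Mir544 among those below it.

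A two-sided exact binomial test on the counts, adjusted over all 329 genes by the Benjamini-Hochberg method at 0.05, sets the 2 libraries against counting error and compares these libraries only. By this test 8 members were higher and 21 lower in replicate 2, and 5 did not pass. Among all genes 74.2% passed, 37.7% higher and 36.5% lower, against 29 of 34 members (85.3%), of which 23.5% higher and 61.8% lower. The 5 that did not pass were Mir379 (log2 ratio 0.01, adjusted p = 0.757 by the exact test), Mir541 (-0.02, exact adjusted p = 0.317), Mir376b (-0.05), Mir410 (0.07) and Mir679 (0.12). Their intervals were -0.02 to 0.04 for Mir379 and -0.05 to 0.01 for Mir541, the narrowest of these 5, at 14889 and 13222 counts in the shallower library. Whether these 2 members pass depends on the scaling. Mir379 passed without scaling (exact adjusted p = 0.00736) and with relative log expression size factors (0.0190), in opposite directions. Mir541 passed without scaling (exact adjusted p = 7.6e-05) and when scaled to the cluster's own counts (0.00295), with log2 ratios of -0.07 and -0.05.

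Most members were lower in replicate 2, and a few abundant ones made up for them. The median log2 ratio was -0.48 over the 34 members and -0.01 over all 329 genes. Over genes at 10 CPM in both libraries it was -0.42 and -0.01. Without TMM scaling, the medians of the 34 members and the 329 genes were -0.53 and -0.05. The summed counts of the cluster, also without that scaling, had a log2 ratio of -0.02. Of the 27 members that reached 10 CPM in both libraries and lay within 1 log2 unit, 18 were below 0 and 9 above, from -0.99 for Mir1193 to 0.91 for Mir494. In shares of the whole library, Mir487b gained 0.548 percentage points in replicate 2, and the other 38 members together changed by -0.598 points. Without Mir487b the cluster took 4.44% and 3.85% of counts. The near-equal total thus contained a gain of 1 member that was about as large as the net loss of the other 38. Among these 38, some members such as Mir376a and Mir382 also gained.

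**Figure D4:**
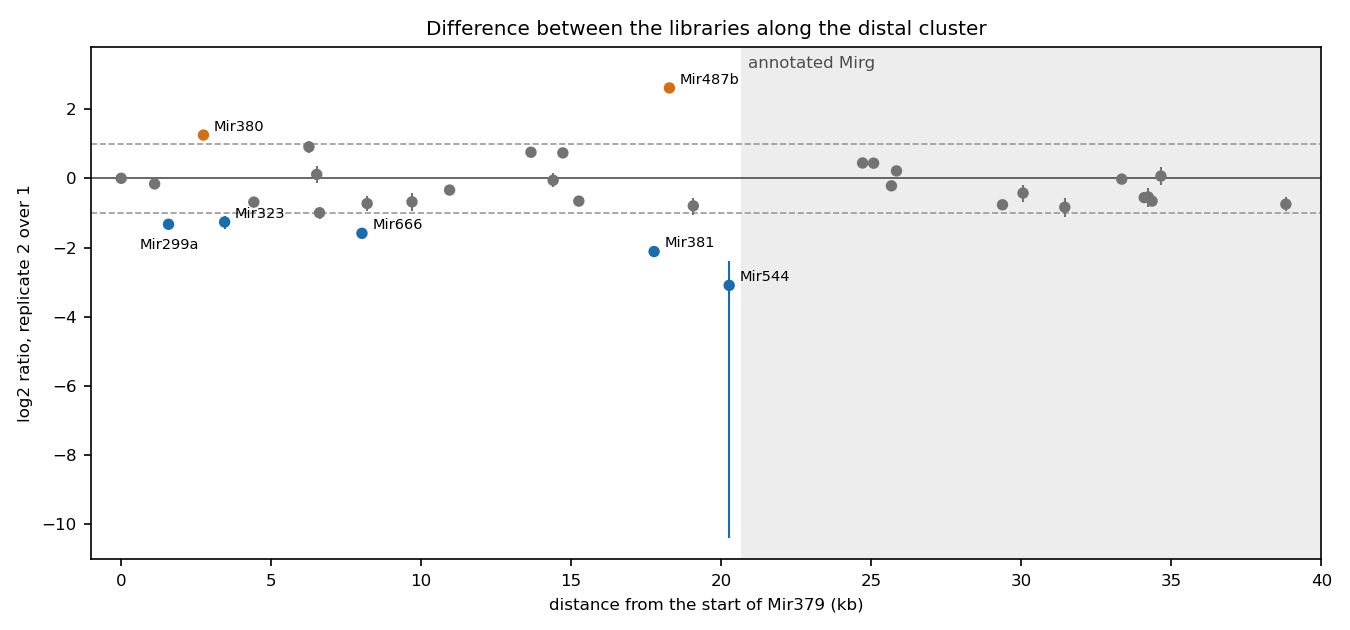
Log2 ratio of replicate 2 over replicate 1 (TMM-scaled CPM + 1) of the 34 members with at least 10 CPM in either library, against the distance of each from the start of Mir379 in kb. Bars are exact 95% intervals without the added CPM, dashed lines mark 1 log2 unit, coloured points differ by at least that, and the shaded part is the annotated Mirg. All 7 coloured points lie before Mirg, and Mir544 has the widest interval.

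The spread differed along the cluster. The annotated transcript of Mirg begins 20.7 kb after the start of Mir379, so 25 members lie ahead of it with no annotated plus-strand host gene, and 14 lie within it, 4 in exons, 5 partly in exons and 5 in introns. All 7 members that differed by at least 1 log2 unit were among the 21 tested ahead of Mirg, and none was among the 13 tested within it, where ratios ran from -0.83 to 0.45. Over all tested genes the share this far apart was 22.2%, and of the 302 at 10 CPM in both libraries 26 were higher and 31 lower. Without Mir544, which passed the floor through replicate 1 alone, 6 of 20 members ahead of Mirg were this far apart, with an SD of 1.10. With it, the SD of the log2 ratios was 1.24 ahead of Mirg and 0.46 within it. Without Mir487b, Mir381 and Mir544 it was 0.82 ahead of Mirg. The median size of the log2 ratio was 0.75 and 0.45 for the members at 10 CPM in both libraries. This split was chosen after the values were seen and was not tested. The summed shares stayed alike, with 64.6% and 66.5% of the cluster's counts ahead of Mirg and 35.4% and 33.5% within it.

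Within Mirg, 9 of the 13 tested ratios were below 0 and 4 above, beside 14 below and 7 above among the 21 ahead of it. In the group from Mir382 to Mir453, set off by wide gaps and with Mir453 at 0, Mir382 and Mir134 had log2 ratios of 0.45 and 0.44, Mir485 one of 0.22 and Mir668 one of -0.21. Mir485, like Mir134, is known from work on synapses. In the next group, from Mir154 to Mir410, 7 of 8 ratios were below 0 with a median of -0.54, including Mir541, whose sign depends on the scaling. The lowest were those of Mir377 (-0.83) and Mir154 (-0.76). Mir409, Mir412 and Mir369, with gaps of 52 and 49 bases between them, had -0.55, -0.53 and -0.65. Over the whole cluster, the median difference was 0.80 log2 units between next members (32 pairs) and 0.77 over all 528 pairs, and 11 of the 32 neighbouring pairs were at least 1 log2 unit apart. The log2 ratios of next members had a Pearson's r of -0.30 and a Spearman's rho of -0.19 over the 32 pairs, given as descriptions.

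Near twins in sequence had unlike ratios in some cases. Mir300, whose 3′ arm is close to that of Mir381, had a log2 ratio of -0.65 beside -2.11. The near twins Mir543 and Mir495 had -0.72 and -0.68. Mir376a (0.74) and Mir376c (0.76) were higher in replicate 2, while Mir376b, between them in the cluster, stood at -0.05. Across the 33 members the log2 ratio had a Pearson's r of -0.20 with hairpin GC content, 0.35 with folding energy per base, -0.16 with hairpin length and 0.25 with log2 of mean CPM. These are weak relations over members of the same 2 libraries.

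A list of 14 members known from work on neurons, muscle or metabolism included most of the abundant ones. It was drawn up with earlier results of these data known, so its share of the counts is a description and no independent result. All 14 were at 10 CPM or more in both libraries, and they took 74.1% and 70.6% of the cluster's counts. By the exact test 5 were higher in replicate 2, 5 lower and 4 not past it. Their median log2 ratio was -0.01, beside -0.48 over the 34 tested members of the cluster. Among all genes 37.7% were higher and 36.5% lower by that test, and 22.2% differed by at least 1 log2 unit, as Mir381 alone did here. The list was Mir134, Mir379, Mir485, Mir495, Mir329, Mir410, Mir381, Mir382, Mir377, Mir411, Mir541, Mir376a, Mir376b and Mir376c.

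The proximal cluster of the same imprinted region, 14 genes that include Mir127, Mir431 and Mir433, which lie antisense to Rtl1, gives the closest comparison. It took 4.68% and 3.94% of counts, and 11 of its 14 members reached 10 CPM in both libraries. Of its 12 tested genes 1, Mir665 (1029 and 274 CPM, log2 ratio -1.86), differed by at least 1 log2 unit, and 3 were higher, 8 lower and 1 not past the exact test. The shares over all genes were 22.2% at least 1 log2 unit apart, and 37.7% higher and 36.5% lower by the exact test. The median log2 ratio was -0.48 in the distal cluster and -0.33 in the proximal one. The SD of the log2 ratios was 1.01 in the distal cluster and 0.68 in the proximal one. It was 0.45 in the 7 genes of the X-linked Mir322 cluster and 1.01 over all 329 genes. These values include Mir544 and, among the 8 lower proximal genes, Mir3070a (15.3 and 8.10 CPM). Both were below 10 CPM in replicate 2, so the floor set their direction. Among genes at 10 CPM in both libraries, the medians were -0.42 (distal) and -0.32 (proximal). The SDs were then 0.90 in the distal cluster, 0.69 in the proximal one and 0.92 over all genes. Over genes at 10 CPM in both libraries, the median size of the log2 ratio was 0.68 in the distal cluster, 0.35 in the proximal one and 0.45 over all genes. The difference between the clusters was not tested.

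How reads were assigned bears on 5 members. Mir299a, Mir380, Mir376a, Mir539 and Mir409 each lie across from a microRNA gene annotated on the minus strand, and they held 13.9% and 12.6% of the cluster's counts. In the counts made irrespective of strand these reads were not assigned, which left 0 and 1 count for Mir299a and 0 for the other 4. At Mir299a the sequences are also alike, since its hairpin holds a stretch of 21 bases that is also present in inverted form. The RefSeq sequence of miR-299b-5p, from the minus strand, is identical to bases 2 to 22 of miR-299a-5p, and that of miR-299b-3p to bases 1 to 18 of miR-299a-3p. Reads with several alignments, 25.0% and 27.2% of all reads, were not counted, and how many of them came from Mir299a was not tested. The hairpins of Mir376c and Mir376b share a stretch of 31 bases, which holds 18 of the 22 bases of miR-376c-5p, and whether reads of that arm were lost in this way was not tested.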

How the data were processed

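The 2 microRNA-seq libraries of female adrenals were used, 1 group by the labels, which do not say how many glands each holds. The authors deposited raw read counts per microRNA gene for each library. The build was mm10 and the annotation GENCODE M21, per the labels and the accompanying notes. Aligner and counting program were not given in the sources used here. Counts on the strand of the gene were used, and the 4 summary lines of each table (unmapped, several alignments, outside microRNA genes, ambiguous: 61.7% and 62.5% of reads) stayed out of totals and tests. All 2202 identifiers matched the annotation. CPM was computed over all assigned counts, and edgeR 4.0.16 in R 4.3.3 gave TMM factors. Genes at 10 CPM or more in either library were compared by a two-sided exact conditional binomial test in SciPy 1.17.1. Benjamini-Hochberg adjustment was over 329 genes at 0.05. The test was first run on simulated Poisson counts. These hold only the counting error that the test assumes, so that run cannot show how it behaves on real libraries. Values past machine precision are not printed. Folding energies came from ViennaRNA 2.7.2, sequences from RefSeq. The libraries' counts differed by a chi-square of 510178 (328 degrees of freedom) over all tested genes and 18750 (36 degrees of freedom) over the counted members, so they are not 1 library in 2 copies. Named members were the 10 with the highest mean CPM, the 5 largest ratios each way, every member under 10 CPM in either library and those sharing a seed with these; other members given with values were chosen after their values were seen. The members and lists were chosen with earlier results of these data known. Alternatives were other scalings, pseudocounts, floors, count columns, denominators and each library alone. The sources name no molecular identifiers, so intervals cover counting error only.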

Additional observations from a re-analysis of the deposited data

Results flagged for a closer look

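Reads on the opposite strand, which no comparison used, were seen at Mir299a, with 5 counts in replicate 1 and 0 in replicate 2. This is above the limit of 3 counts that a count of 0 allows. They are the counts of Mir299b, the microRNA gene annotated on the minus strand at the same place, beside 4427 and 2710 counts for Mir299a. Mir541 had 1 such read in replicate 1, and no other member had any.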

How the results depend on the processing

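Counted irrespective of strand, 6 members in place of 2 had no count, since reads of the members with a gene on the opposite strand were set aside. The mean share of the cluster was nevertheless 5.31% in place of 4.53%, because the assigned total was smaller. Mir379, with the same counts, stood at a mean of 9820 CPM in place of 7251 CPM. With all mapped reads as the denominator the share of the cluster was 2.36%. This share was 4.50% to 4.55% with either library left out. The number of members at 10 CPM or more ranged from 33 to 34 with a library left out and from 28 to 35 over other floors and columns. The count of members at least 1 log2 unit apart ranged from 6 to 8, that past the exact test from 26 to 31, and the SD of log2 ratios from 0.90 to 1.16 over the alternatives run. Named members changed sign in 3 cases, all within 0.05 log2 units of 0. Mir379 moved from 0.01 to -0.043 without scaling and -0.027 when scaled to the cluster's own counts, and Mir541 from -0.02 to 0.014 with relative log expression size factors. No direction can thus be given for these 2 members, which also passed the exact test under some scalings. The ratio of Mir544 ran from -4.63 to -1.52 with the pseudocount. Depth limits the low members: at 1 to 30 counts, Mir544, Mir758, Mir1197 and Gm27379 cannot be ranked.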
